A study of Drosophila melanogaster with 8 samples.

Results

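M9 is a subsection of the posterior midgut of feeding Drosophila melanogaster larvae in the third instar, lying between M7–8 on its anterior side and M10–11 on its posterior side. It was set against the other 7 subsections (M1, M2, M3–5, M6, M7–8, M10–11 and M12–13) by its deviation: log2(FPKM + 1) in M9 minus the mean of log2(FPKM + 1) over the other 7. FPKM are fragments per length of transcript, here scaled between libraries on the upper quartile. They did not add up to the same total in each subsection, with 882431 FPKM over all named entries in M9 and 542365 (M12–13) to 1806160 (M2) in the others. Of 14207 named entries in the table, 6315 were above 5 FPKM in any subsection or above a mean of 3 FPKM, and these are called expressed. An expressed entry was called higher in M9 at a deviation of at least 1 (2-fold) and lower at −1 or less. Because 1 is added to each FPKM, the deviation understates differences of low genes.

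RNA was measured in 8 subsections with 1 library each, and M9 is 1 of these 8. All 8 came from larvae of the same cross, labelled with strain w1118. These larvae carried a GAL4 transgene driven by the promoter of Cyp4d2 and a UAS transgene for nuclear green fluorescent protein, whose fluorescence in M2, M4, M6, M9 and M12–13 marked where to cut. Tissue of many larvae was pooled, so no value has an error between animals and no difference was tested. Nor can fewer cells of a type and less RNA per cell be told apart in such pools.

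The larval midgut is a tube of absorptive and secretory enterocytes with scattered endocrine and progenitor cells. Its cells are divided along the length of the gut into zones that release different digestive enzymes and take up different nutrients, with an acid-producing copper cell zone in the middle. Proteins in the food are cut by secreted endopeptidases, among them trypsins, which cut after basic residues, and the chymotrypsin-like Jonah proteases. Exopeptidases then shorten the peptides, and carriers in the enterocyte membrane take up the products. Fat is split by lipases, absorbed, and rebuilt or stored in droplets coated by perilipins.

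Of the expressed entries, 525 (8.31%) were higher in M9 and 406 (6.43%) were lower. The median deviation was −0.04. These shares and this median are the background for every list count below, and a count near them is no result about its list. Leaving out M6, the subsection least like M9 (below), gave 451 higher and 513 lower entries. The paper reports fewer reads for M6 and RNA that degraded more readily, and the part of this in the M6 values was not tested. Large deviations were few, with 24 entries at 5 or more and 22 at −5 or less. Of the 525 higher entries, 225 were highest in M9 itself, 143 in M10–11, 59 in M12–13, 55 in M7–8 and 3 to 17 in each other subsection. M9 had the highest value of all 8 subsections for 545 of all expressed entries (8.63%) and the lowest for 477 (7.55%). M10–11 was highest for 531 of all expressed entries, M12–13 for 681 and M7–8 for 920. For 20 entries (0.317%) M9 was at least 2-fold above every other subsection, and for 5 (0.0792%) it was at least 2-fold below every other. At the threshold, DIP2 lay just inside 1 (1.00001) and Cyp311a1 just outside it (0.99999). CG16995 lay just inside −1 (−1.0003) and CG8778 just outside it (−0.99988).

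**Figure D1:**
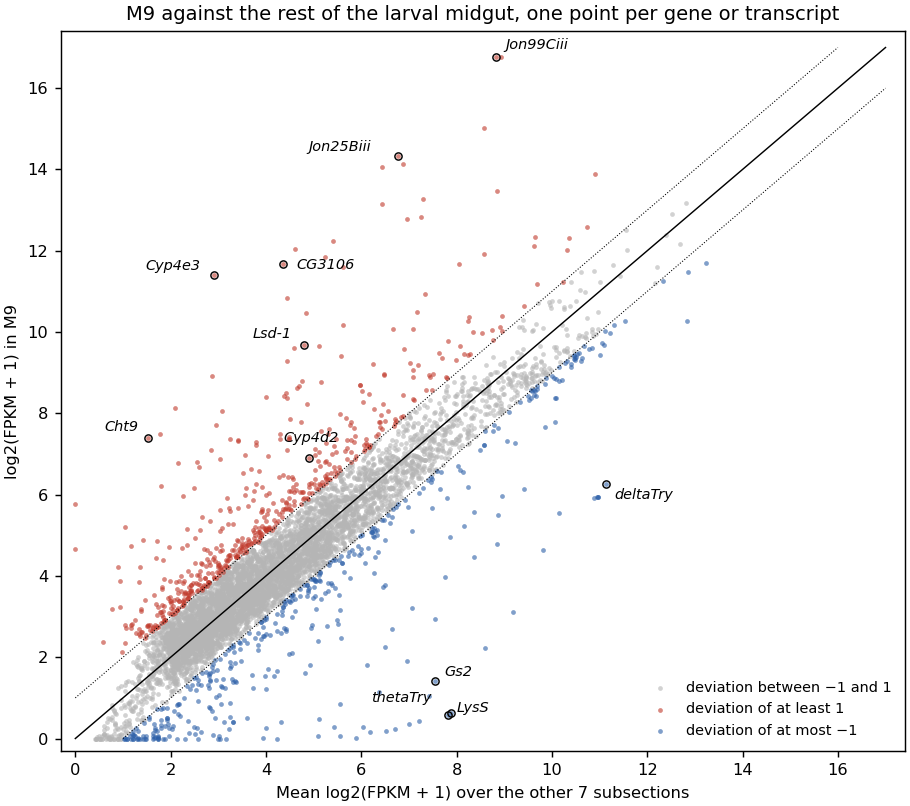
Each point is 1 of 6315 expressed entries, with log2(FPKM + 1) in M9 on the y axis and the mean over the other 7 subsections on the x axis. The solid line marks equal values and the dotted lines a deviation of 1 and −1. Jon99Ciii stands at the top, with a deviation of 7.95, and LysS and thetaTry at the bottom, with −7.25 and −7.24.

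Jon99Ciii and CG3106 were named as markers when M9 was chosen for description, so their values describe M9 and are not a check on it. Both were highest in M9. Jon99Ciii (FBgn0003357, 3R, 25747938 to 25748774, coordinates of FlyBase release 5 throughout), a chymotrypsin-like serine endopeptidase, had 112430 FPKM in M9, against 36.5 at M1, 16.7 at M2, 9.04 at M3–5, 577 at M6, 26419 at M7–8, 27024 at M10–11 and 1488 at M12–13. M9 was 4.26-fold above M7–8 and 4.16-fold above M10–11, and the values were lower still beyond both neighbours. CG3106 (FBgn0030148, X, 9520367 to 9556791), a predicted membrane acyltransferase, had 3288 FPKM in M9, against 20.2 at M1, 7.74 at M2, 0.368 at M3–5, 0.286 at M6, 268 at M7–8, 1037 at M10–11 and 16.4 at M12–13. Here the steps were 12.2-fold over M7–8 and 3.17-fold over M10–11. CG3106 shares its stated position with the neighbouring l(1)G0232 in the table, and the libraries were not stranded, so reads of overlapping transcripts may have been split between them. Lsd-1, CG17633, CG10472, CG18180 and Cyp4d2, described below, likewise have a joint position with adjoining genes.

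The intervals in the table set a limit on all these differences. The deposited 95% interval of the M9 value began at 0 for 14205 of the named entries, and only Jon99Cii and Jon99Ciii had a lower bound above 0. For Jon99Ciii the M9 interval ran from 112289 to 112570 FPKM, while the upper bounds were 149833 FPKM in M7–8 and 158759 FPKM in M10–11. No expressed entry had an M9 interval lying wholly above or wholly below those of all other subsections. An interval that begins at 0 cannot lie wholly above another, so for nearly all entries that part was fixed beforehand.

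Transcript length also went with the deviation. Over the 6102 expressed entries with a known length, Spearman's rho between deviation and length was 0.60, given as a description of these 8 libraries. The median deviation was −0.76 for 187 entries of up to 500 nt and 0.80 for 322 entries above 5000 nt. With a smooth length trend removed, 396 entries (6.49%) were higher and 253 (4.15%) lower. Of the entries with a length, 325 of 502 higher calls and 211 of 398 lower calls were kept. The part of length in the differences was not tested further. Counts without the trend are given below for the Jonah, ABC transporter, glutathione S-transferase, metal handling and V-ATPase lists, and in the closing section for the other lists that it changed.

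Serine endopeptidases led the genes higher in M9. Among the 25 entries with the largest deviation, 10 were Jonah genes and 6 were other predicted serine endopeptidases of the same fold. M9 itself was the highest subsection for 15 of the 25, M7–8 for 6, M10–11 for 3 and M12–13 for 1. Some leads were small: M9 was above M10–11 by 0.04, 0.20 and 0.21 in log2(FPKM + 1) for CG10472, CG16749 and CG11911. Summed FPKM was larger in M9 (882431) than in M10–11 (676723), and calls by such small leads can change with the scaling. None of the 25 was highest in M1, M2, M3–5 or M6.

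**Figure D2:**
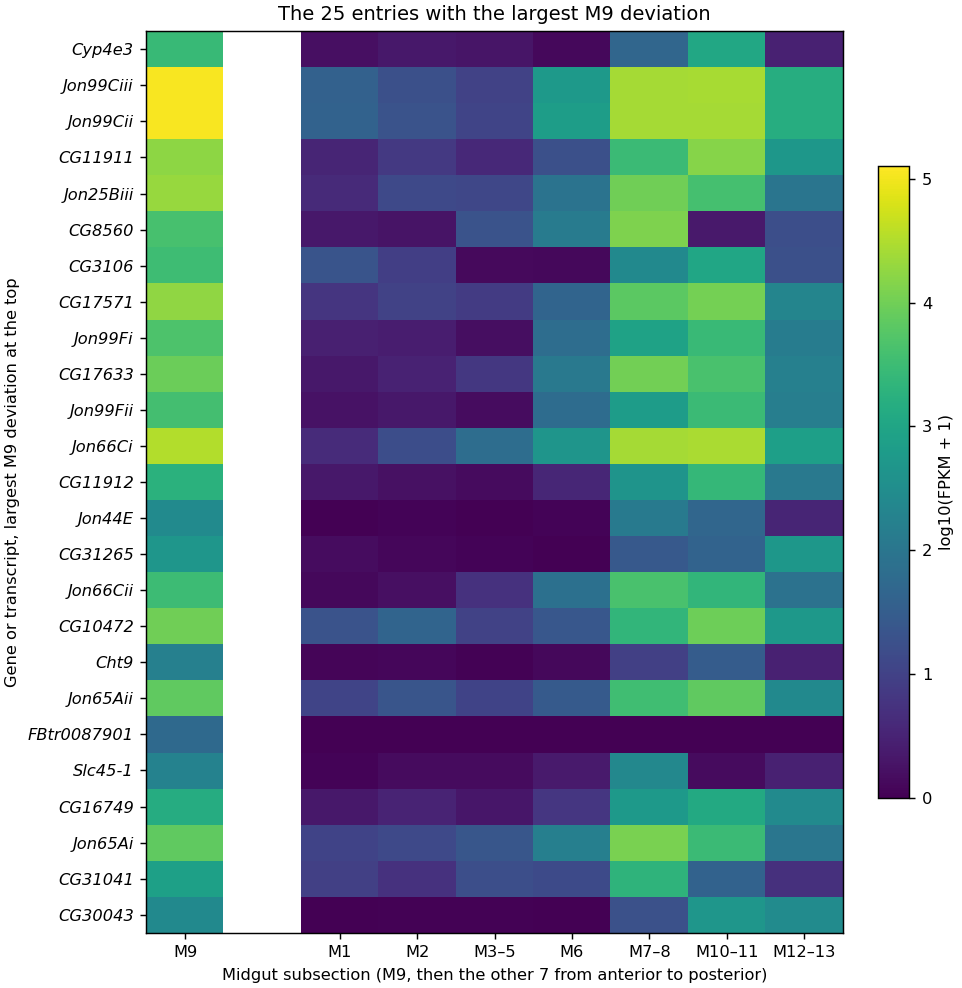
Colour gives log10(FPKM + 1) of the 25 entries with the largest M9 deviation (rows) in M9, set apart at the left, and in the other 7 subsections from anterior to posterior (columns). M9 is the highest column for 15 rows, and M7–8 and M10–11 are the brightest of the rest for most of the proteases.

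All 16 Jonah genes were expressed, and 11 were higher in M9 against 8.31% of all expressed entries. Another 3 were lower (5 without M12–13), and the median deviation was 5.90, beside −0.04 for all. M9 was the highest subsection for 8 of them, though by only 0.06, 0.24 and 0.29 in log2(FPKM + 1) over M10–11 for Jon99Ci, Jon66Ci and Jon99Fii. Summed, the 16 genes held 35.5% of the summed FPKM in M9, against 18.8% in M7–8, 15.8% in M10–11, 0.879% in M12–13 and 1.61% to 6.35% in M1, M2, M3–5 and M6. Jon99Cii and Jon99Ciii alone held 25.3% in M9, against 7.36% in M7–8 and 7.88% in M10–11. The counts of Jonah genes called were the same without the length trend, although most of these transcripts are short.

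The 2 genes at the head of the family are close paralogs and had nearly equal values, so reads shared between them may have been divided by the quantification. Jon99Cii (FBgn0003356, 3R, 25749476 to 25750337) had 110620 FPKM in M9, against 25916 in M7–8, 26335 in M10–11 and at most 1531 in the other 5 subsections. Jon25Biii (FBgn0031653, 2L, 4949941 to 4950767) came next, with 20568 FPKM in M9, against 9719.9 in M7–8, 3876 in M10–11 and at most 93.1 in the other 5 subsections. It was more than 2-fold above both of its neighbours, and nearly absent from M1. Jon66Ci was among the 3 most abundant entries in M9 but differed less than these between M9 and its neighbours, with 33119 FPKM in M9, against 25917 in M7–8, 28102 in M10–11 and at most 756 in the other 5 subsections.

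Other members took 2 further forms. Jon99Fi had 4824 FPKM in M9, against 866 in M7–8, 2869.9 in M10–11 and at most 138 in the other 5 subsections, and Jon99Fii had 3697 FPKM in M9, against 648 in M7–8, 3014 in M10–11 and at most 154 in the other 5 subsections. In both, M9 and M10–11 were closer to each other than to M7–8. Jon66Cii had 3118 FPKM in M9, against 4405 in M7–8, 2231 in M10–11 and at most 84.6 in the other 5 subsections, and Jon65Ai had 7322 FPKM in M9, against 11774 in M7–8, 2987 in M10–11 and at most 155 in the other 5 subsections. These peaked on the anterior side of M9. Jon65Aii had 7001 FPKM in M9, against 3445 in M7–8, 7218 in M10–11 and at most 259 in the other 5 subsections, so M9 and M10–11 were almost equal. Jon44E and Jon99Ci had lower values than the members above. Jon44E was at least 2-fold above every other subsection in M9, while Jon99Ci was nearly equal in M9 and M10–11. Jon44E had 280.2 FPKM in M9, against 0 at M1, 0.0965 at M2, 0.0394 at M3–5, 0.123 at M6, 118 at M7–8, 47.3 at M10–11 and 2.37 at M12–13, and Jon99Ci had 108 FPKM in M9, against 19.8 in M7–8, 104 in M10–11 and at most 10.1 in the other 5 subsections.

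Neighbouring Jonah genes could differ widely. Jon65Aiii had 5317 FPKM in M9, against 21029.6 at M1, 46986 at M2, 31420.3 at M3–5, 3999 at M6, 10308 at M7–8, 1621 at M10–11 and 62.6 at M12–13, a deviation of −0.02, and Jon65Aiv had 4626 FPKM in M9, against 55.9 (M12–13) to 64524 FPKM (M2) in the other 7. Unlike Jon65Ai and Jon65Aii, these had their highest values in the anterior midgut while remaining abundant in M9. In the 25B group, Jon25Biii was high in M9, but Jon25Bi had 1.64 FPKM in M9, against 0.0437 (M12–13) to 214 FPKM (M1) in the other 7, and Jon25Bii had 18.96 FPKM in M9, against 0.0826 (M12–13) to 2449 FPKM (M1) in the other 7. Both of these were highest in M1. Jon74E had the lowest deviation of the family, −5.23, with 1.20 FPKM in M9, against 0.167 (M7–8) to 3516 FPKM (M1) in the other 7.

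Serine endopeptidases outside the Jonah family are named here for a large deviation or a high FPKM in M9. Their high values in M9 follow from that choice, and apart from the trypsins below no list of them was scored. CG17571 (FBgn0259998, 2L, 20255988 to 20256952) had 18119.6 FPKM in M9, against 5.20 at M1, 9.27 at M2, 6.56 at M3–5, 43.9 at M6, 6559.8 at M7–8, 11024 at M10–11 and 205 at M12–13. CG11911 (FBgn0031249, 2L, 305935 to 347927) had 17109.7 FPKM in M9, against 2951 in M7–8, 14821 in M10–11 and at most 496 in the other 5 subsections, and its neighbour CG11912 had 1830.0 FPKM in M9, against 426 in M7–8, 2499.5 in M10–11 and at most 113 in the other 5 subsections. The table gives CG11911 and CG11912 the same position, that of a bundle of adjoining loci. CG10472 had 9909.6 FPKM in M9, against 2281 in M7–8, 9633 in M10–11 and at most 534 in the other 5 subsections, and CG16749 had 1423 FPKM in M9, against 545 in M7–8, 1237 in M10–11 and at most 275 in the other 5 subsections. M9 exceeded M7–8 for each of these genes, and CG11912 alone of the group was lower in M9 than in M10–11. CG31265 differed from the rest: it had 482 FPKM in M9, against 0.469 at M1, 0.209 at M2, 0.128 at M3–5, 0 at M6, 25.5 at M7–8, 40.9 at M10–11 and 506 at M12–13, so that M9 and M12–13 were both high with M10–11 low between them. CG18180, among the 10 most abundant entries of M9, had 11397 FPKM in M9, against 31275 in M7–8, 1551 in M10–11 and at most 602 in the other 5 subsections, and was higher in M7–8 than in M9.

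The trypsins gave a different picture. Of 12 trypsin genes, all expressed, 3 were higher in M9 and 6 were lower, against 8.31% and 6.43% of all entries, and the median deviation was −2.41. None had its highest value in M9. The 6 lower ones were highest in M1 or M2. thetaTry had 0.553 FPKM in M9, against 2455 at M1, 9088 at M2, 4888 at M3–5, 279.6 at M6, 195 at M7–8, 1.58 at M10–11 and 1.51 at M12–13. betaTry had 3.65 FPKM in M9, against 0.712 (M10–11) to 15857 FPKM (M2) in the other 7, alphaTry had 7.58 FPKM in M9, against 2.28 (M10–11) to 22903 FPKM (M1) in the other 7, and epsilonTry had 0.0420 FPKM in M9, against 0.0356 (M10–11) to 6881 FPKM (M2) in the other 7. deltaTry and gammaTry, which are near-identical copies and may share reads, had 75.7 and 60.4 FPKM in M9, against 104965 and 100132 FPKM in M2. Both were nonetheless higher in M9 than in M10–11, where they had 3.85 and 3.61 FPKM.

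Trypsins that were higher in M9 than the mean of the rest peaked further back. zetaTry had 98.6 FPKM in M9, against 2.22 at M1, 3.48 at M2, 1.01 at M3–5, 0.117 at M6, 7.95 at M7–8, 201 at M10–11 and 1029.9 at M12–13, increasing from M7–8 to the hind end. lambdaTry had 354 FPKM in M9, against 0 (M6) to 659 FPKM (M10–11) in the other 7, and etaTry had 165 FPKM in M9, against 4.54 (M6) to 337 FPKM (M12–13) in the other 7. Most Jonah genes were thus higher in M9 than in the anterior midgut, and 6 abundant trypsins were lower in M9. The difference between the families was not tested.

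**Figure D3:**
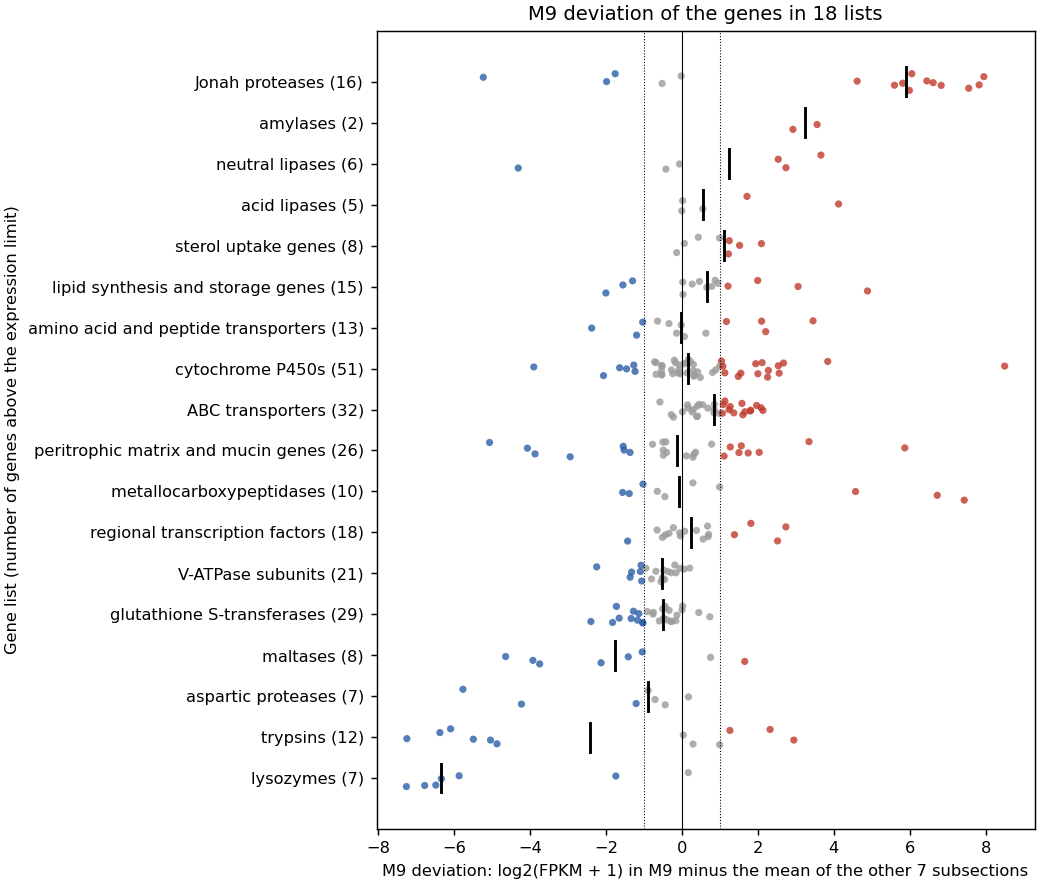
Points give the M9 deviation of each expressed gene in 18 lists, with the median as a black bar, red for a deviation of at least 1, blue for −1 or less and grey between. The number of expressed genes follows each list name. Jonah genes reach 7.95, while the 6 abundant trypsins lie between −7.24 and −4.87.

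Exopeptidases differed in where they were highest. Of 10 expressed metallocarboxypeptidases, which remove residues from the carboxyl end, 3 were higher in M9 and 3 lower, against 8.31% and 6.43%. The 3 higher ones all had their highest value in M7–8. CG8560 (FBgn0035781, 3L, 7395432 to 7397281) had 4201 FPKM in M9, against 1.14 at M1, 0.828 at M2, 19.1 at M3–5, 132 at M6, 12988 at M7–8, 1.27 at M10–11 and 15.5 at M12–13. No other expressed entry had so wide a step between M9 and M10–11. CG8562 had 1163 FPKM in M9, against 2175 in M7–8, 16.2 in M10–11 and at most 55.3 in the other 5 subsections, with a similar drop. CG17633 had 9152 FPKM in M9, against 10375 in M7–8, 4373 in M10–11 and at most 165 in the other 5 subsections, a smaller step at that boundary. The 3 lower carboxypeptidases, CG7025, CG18585 and CG32379, were below 2 FPKM in M9 and highest in M12–13, with 358, 369 and 205 FPKM. These 3 deviations rest on M12–13, and against the median of the other 7 subsections they were 0.64, 0.0539 and 0.14. CG30043, a predicted peptidase, had 263 FPKM in M9, against 0.0281 at M1, 0.0884 at M2, 0.0480 at M3–5, 0 at M6, 17.7 at M7–8, 481 at M10–11 and 292 at M12–13, and was thus shared by M9, M10–11 and M12–13.

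Aspartic proteases and cysteine cathepsins, enzymes of acid digestion and of lysosomes, differed from each other. Of 7 expressed aspartic proteases, 0 were higher and 3 lower, against 8.31% and 6.43%. Bace, a pepsin-like endopeptidase, had 0.207 FPKM in M9, against 0 (M10–11) to 4024 FPKM (M3–5) in the other 7. CG33128, of the same family, was listed at 0 in M9, M10–11 and M12–13, at 0.0310 FPKM in M1 and at 24758 FPKM in M6. The third lower member, pcl, had 3.37 FPKM in M9, 606 in M6 and 543 in M7–8, and its deviation against the median of the other 7 was 1.68. Of 5 expressed cysteine cathepsins, 1 was higher, CG6357, with 9.95 FPKM in M9, against 0.287 (M1) to 29.8 FPKM (M10–11) in the other 7. All 5 had a positive deviation, with a median of 0.49, and the listed cathepsins summed to 2439.9 FPKM in M9, against 1083 (M12–13) to 2175 (M10–11) in the other 7. The most abundant was CtsB1, with 1744 FPKM in M9, against 662 (M12–13) to 1479 FPKM (M10–11) in the other 7, highest in M9.

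Of the carbohydrate-digesting enzymes, both expressed amylases had positive deviations and most expressed maltases negative ones. Both expressed amylases, which cut starch, were highest in M9, though at low levels. Amy-d had 25.5 FPKM in M9, against 0.307 at M1, 0.0693 at M2, 0.104 at M3–5, 0.00237 at M6, 6.69 at M7–8, 6.78 at M10–11 and 2.16 at M12–13, and Amy-p had 13.6 FPKM in M9, against 8.69 in M7–8, 2.70 in M10–11 and at most 0.902 in the other 5 subsections. As close copies they may share reads. Of 8 expressed maltases, which release glucose from short chains, 1 was higher in M9 and 6 were lower, against 8.31% and 6.43%. Their median deviation was −1.77. Beside its neighbours M9 was not low: the listed maltases summed to 101 FPKM in M9, against 54.5 in M7–8 and 47.5 in M10–11. The sums were 56.9 FPKM in M6, 143 in M12–13 and 1061 (M2) to 2658 (M3–5) in the anterior midgut. Mal-A1 had 0.396 FPKM in M9, against 1345 at M1, 666 at M2, 1322 at M3–5, 8.30 at M6, 0.749 at M7–8, 0.353 at M10–11 and 1.36 at M12–13, close to nothing in M9, M7–8, M10–11 and M12–13. Mal-A3, the exception, had 76.4 FPKM in M9, against 0.434 (M6) to 77.4 FPKM (M2) in the other 7. Slc45-1, a sugar transporter that was not on the list of sugar transporters chosen here, had 178 FPKM in M9, against 0.106 at M1, 0.405 at M2, 0.433 at M3–5, 1.36 at M6, 235 at M7–8, 0.432 at M10–11 and 2.01 at M12–13. It was present in M9 and M7–8 and nearly absent elsewhere. On that list, trehalase, which splits the blood sugar trehalose, was the 1 higher member of 5 expressed, with 45.3 FPKM in M9, against 2.52 (M6) to 91.3 FPKM (M1) in the other 7.

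Lysozymes were the list with the lowest median deviation, −6.33. These enzymes cut bacterial cell walls, and several of them act as digestive enzymes in fly guts. Of 7 expressed genes 6 were lower in M9 and 0 were higher, against 6.43% and 8.31%. LysS had 0.485 FPKM in M9, against 57738 at M1, 35149 at M2, 4024 at M3–5, 64.8 at M6, 14.9 at M7–8, 0.306 at M10–11 and 1.69 at M12–13. LysD had 0.354 FPKM in M9, against 0.191 (M12–13) to 13131 FPKM (M1) in the other 7, and LysB and LysC had 0.176 and 0.135 FPKM in M9, against 7238 and 7967 FPKM in M1. All 6 lower lysozyme genes lie in 1 bundle on 3L, and near-identical copies among them may share reads. M10–11 was as low as M9 or nearly so for these genes. LysX, outside that bundle, had a deviation of 0.17 and 3.18 FPKM in M9. All 4 lower members of the 6 expressed lysosomal glycosidases were below 1 FPKM in M9 and highest in M12–13, none was higher in M9, and without M12–13 the count of lower members was 0.

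Genes of fat digestion and storage contributed several high values. Of 15 expressed genes of lipid synthesis and storage, 4 were higher and 3 lower, against 8.31% and 6.43%. For 4 the highest value was in M9, against 8.63% of all entries. Lsd-1 (FBgn0039114, 3R, 19589579 to 19593210), a perilipin that coats lipid droplets, had 816 FPKM in M9, against 2.75 at M1, 10.8 at M2, 13.00 at M3–5, 0.124 at M6, 48.8 at M7–8, 683 at M10–11 and 523 at M12–13. Its partner Lsd-2 had 578 FPKM in M9, against 99.3 at M1, 92.9 at M2, 68.8 at M3–5, 74.8 at M6, 139.7 at M7–8, 532 at M10–11 and 364 at M12–13. bmm, the lipase that releases stored triacylglycerol, had 219.7 FPKM in M9, against 9.05 at M1, 9.14 at M2, 5.71 at M3–5, 31.9 at M6, 40.2 at M7–8, 128 at M10–11 and 76.2 at M12–13. All of these were highest in M9, but M10–11 was within 2-fold in each case. CG3523, a fatty acid synthase, was the other higher member, with 381 FPKM in M9, against 7.20 (M6) to 447 FPKM (M12–13) in the other 7.

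By contrast, the acyltransferase mdy, which completes triacylglycerol, had 2.78 FPKM in M9, against 2.30 (M6) to 27.9 FPKM (M1) in the other 7. CG1941 and CG1942, of the related acyltransferase family, had 10.6 and 4.53 FPKM in M9, against 133 and 151 FPKM in M2. These 3 lower members were highest in M1 or M2. Genes of fatty acid synthesis and desaturation, ACC, ATPCL and desat1, lay within 2-fold of the mean of the rest, with deviations of 0.66, 0.03 and 0.88.

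Lipases that act on food followed a similar division. Of 6 expressed neutral lipases, 3 were higher in M9 and 1 lower, against 8.31% and 6.43%. CG6296 had 373 FPKM in M9, against 99.3 at M1, 107 at M2, 69.5 at M3–5, 1.58 at M6, 97.3 at M7–8, 338 at M10–11 and 69.7 at M12–13, and CG5966 had 70.2 FPKM in M9, against 5.75 in M7–8, 78.9 in M10–11 and at most 6.44 in the other 5 subsections. Both were shared by M9 and M10–11. CG10116 had 95.2 FPKM in M9, against 11.8 in M7–8, 161 in M10–11 and at most 228 in the other 5 subsections and was highest in M12–13. The lower gene, CG6295, had 2.52 FPKM in M9, against 0.311 (M12–13) to 11407 FPKM (M2) in the other 7. The table places CG6296 and CG6295 in the same bundle, with opposite patterns. Of 5 expressed acid lipases, 2 were higher and 0 lower. CG2772 had 165 FPKM in M9, against 10.3 in M7–8, 217 in M10–11 and at most 78.7 in the other 5 subsections. mag, a lipase and sterol esterase released into the gut, had 4170.1 FPKM in M9, against 2777 at M1, 8279.8 at M2, 2340.4 at M3–5, 148 at M6, 2404 at M7–8, 2149 at M10–11 and 129 at M12–13, so that M9 was the highest subsection after M2.

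Sterol uptake genes of the Niemann-Pick type C families, through which larvae take up sterols that they cannot make, had a median deviation of 1.11. Of 8 expressed, 4 were higher in M9 and 0 lower, against 8.31% and 6.43%. Npc2d had 1312 FPKM in M9, against 309.9 at M1, 755 at M2, 223 at M3–5, 25.1 at M6, 347 at M7–8, 926 at M10–11 and 586 at M12–13, highest in M9. Npc1b, the membrane protein needed for sterol uptake in the midgut, had 489 FPKM in M9, against 238 at M1, 538 at M2, 409 at M3–5, 2.31 at M6, 71.8 at M7–8, 805 at M10–11 and 418 at M12–13. It was abundant in most of the gut and low in M6 and M7–8. Without M6 among the others, 2 sterol uptake genes were higher. Of 7 acyl-CoA-binding proteins, 0 were higher and 2 lower, and Dbi, the most abundant in M9, had 9174 FPKM in M9, against 544 (M6) to 44106 FPKM (M2) in the other 7.

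Carriers of amino acids and peptides gave 4 higher and 3 lower genes of 13 expressed, against 8.31% and 6.43%. gb, a cystine and glutamate exchanger, had 149 FPKM in M9, against 1.09 at M1, 1.96 at M2, 1.75 at M3–5, 7.53 at M6, 50.99 at M7–8, 127 at M10–11 and 95.02 at M12–13. CG8785 had 599 FPKM in M9, against 168 at M1, 239 at M2, 223 at M3–5, 35.97 at M6, 79.4 at M7–8, 759 at M10–11 and 29.7 at M12–13. gb was thus spread over M9, M10–11 and M12–13, with less in M7–8, and CG8785 was higher in M9 and M10–11 than in M7–8 and M12–13. Eaat1, a glutamate carrier, had 51.96 FPKM in M9, against 0.514 (M6) to 62.6 FPKM (M2) in the other 7, though the table marks its quantification as not OK somewhere. The lower ones, CG9413, NAAT1 and path, were highest in M12–13, at 261, 337 and 98.5 FPKM. NAAT1, a carrier of essential amino acids, was near 0 in every other subsection as well.

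Among genes of detoxification, cytochrome P450s and ABC transporters had many members higher in M9, and glutathione S-transferases had none. Of 51 expressed P450 genes, 15 were higher and 6 lower, against 8.31% and 6.43%, with 8 highest in M9. Without M6 among the others, 12 were higher. Cyp4e3 (FBgn0015035, 2L, 9747839 to 9750071) had the largest deviation of all expressed entries, 8.49, with 2709 FPKM in M9, against 0.587 at M1, 1.11 at M2, 0.959 at M3–5, 0.259 at M6, 47.5 at M7–8, 1148 at M10–11 and 1.95 at M12–13. Its relative Cyp4e2 had 311 FPKM in M9, against 63.2 at M1, 111 at M2, 76.9 at M3–5, 14.9 at M6, 117 at M7–8, 145 at M10–11 and 31.9 at M12–13, also at least 2-fold above every other subsection. Cyp4e1, of the same subfamily and chosen after its values were seen, had 0.612 FPKM in M9 and at most 1.81 FPKM elsewhere.

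Cyp4ad1 had 679.8 FPKM in M9, against 4.15 (M6) to 471 FPKM (M12–13) in the other 7, and Cyp28a5 had 764 FPKM in M9, against 1.09 (M6) to 821 FPKM (M10–11) in the other 7. Cyp28d2, the lowest P450, had 0.329 FPKM in M9, against 0.399 (M10–11) to 529 FPKM (M1) in the other 7. Cyp4d2, whose promoter guided the dissection, had 118 FPKM in M9, against 19.2 at M1, 94.6 at M2, 45.3 at M3–5, 2.64 at M6, 12.5 at M7–8, 123 at M10–11 and 37.3 at M12–13. M9 and M10–11 had similar values for it, although no fluorescence was described for M10–11, and M6, where fluorescence was described, was the lowest.

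ABC transporters, pumps driven by ATP, had 14 of 32 expressed genes higher in M9 and 0 lower, against 8.31% and 6.43%. Their median deviation was 0.85. Mdr49 had 88.8 FPKM in M9, against 20.6 at M1, 24.7 at M2, 15.1 at M3–5, 0.330 at M6, 30.3 at M7–8, 69.3 at M10–11 and 56.5 at M12–13. Pmp70, a carrier of the peroxisome membrane, had 475 FPKM in M9, against 125 at M1, 223 at M2, 178 at M3–5, 30.8 at M6, 80.8 at M7–8, 364 at M10–11 and 181 at M12–13. These genes are long, with a median transcript length of 3932 nt, and without the length trend 7 were higher, 1 was lower and the median was 0.29.

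Of 29 expressed glutathione S-transferases, 0 were higher and 10 lower, against 8.31% and 6.43%. In the GstD group were 8 of the lower ones. GstD7 had 49.6 FPKM in M9, against 18.7 (M6) to 983 FPKM (M2) in the other 7. Without the length trend 1 was higher and 4 were lower, and leaving out M1, M2 or M3–5 gave 6, 5 and 5 lower. Carboxylesterases gave 2 higher of 6, led by Est-Q with 164 FPKM in M9, against 2.92 (M1) to 123 FPKM (M10–11) in the other 7. UDP-glycosyltransferases gave 1 higher of 10, close to the 8.31% of all entries. It was Ugt86Dg, with 20.6 FPKM in M9, against 0.0517 (M6) to 20.8 FPKM (M10–11) in the other 7.

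The peritrophic matrix, the chitin and protein sleeve around the food, and mucin genes had 8 higher and 7 lower of 26 expressed. The shares of all entries were 8.31% and 6.43%. Cht9 (FBgn0034582, 2R, 16955497 to 16956950), of the chitinase family, had 167 FPKM in M9, against 0.192 at M1, 0.224 at M2, 0.0608 at M3–5, 0.317 at M6, 8.17 at M7–8, 28.8 at M10–11 and 1.94 at M12–13. M9 was the only subsection above 100 FPKM. CG17145 had 1452 FPKM in M9, against 145 at M1, 249.6 at M2, 185 at M3–5, 5.42 at M6, 225 at M7–8, 988 at M10–11 and 124 at M12–13, high in M9 and M10–11. The lower members were highest in M1 or M3–5, among them Muc55B, a mucin, with 36.2 FPKM in M9, against 4.55 (M12–13) to 11428 FPKM (M1) in the other 7, and CG7714, with 2.75 FPKM in M9, against 0.494 (M10–11) to 9749 FPKM (M3–5) in the other 7.

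Several regional transcription factors were higher in M9, though none was 2-fold above every other subsection. Of 18 expressed, 4 were higher and 1 lower, against 8.31% and 6.43%. cad, the caudal homeobox gene of posterior identity, had 25.1 FPKM in M9, against 0.0225 at M1, 0.0226 at M2, 0.0576 at M3–5, 0.0240 at M6, 9.90 at M7–8, 26.6 at M10–11 and 40.7 at M12–13. It was under 0.1 FPKM in every subsection anterior to M7–8. exex, another homeobox gene, had 33.9 FPKM in M9, against 8.53 at M1, 4.80 at M2, 1.75 at M3–5, 1.56 at M6, 5.42 at M7–8, 32.9 at M10–11 and 2.71 at M12–13. hth and tsh, which take part in patterning the embryonic midgut, had 19.1 and 9.48 FPKM in M9, against 33.99 and 18.5 FPKM in M7–8 and 0.873 and 0.617 FPKM in M12–13. lab, the Hox gene of the copper cell zone, had 0.0458 FPKM in M9, against 0.0272 (M2) to 32.9 FPKM (M6) in the other 7. GATAe, a factor expressed throughout the midgut, had 40.5 FPKM in M9, against 18.2 (M6) to 38.95 FPKM (M7–8) in the other 7, a deviation of 0.68.

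Peptide hormones of endocrine cells gave 3 higher and 2 lower of 10 expressed, against 8.31% and 6.43%. Ast-C had 23.9 FPKM in M9, against 0.992 (M1) to 106 FPKM (M7–8) in the other 7, Tk had 4.12 FPKM in M9, against 0 (M6) to 16.5 FPKM (M12–13) in the other 7, and CCHa1 had 13.4 FPKM in M9, against 2.15 (M2) to 26.7 FPKM (M3–5) in the other 7. None of these was highest in M9. Mip had 0.450 FPKM in M9, against 0 (M1) to 696 FPKM (M3–5) in the other 7. Of the 7 expressed progenitor and cell cycle genes, 0 were higher and 1 was lower, mus209, with 6.62 FPKM in M9, against 8.30 (M6) to 28.9 FPKM (M1) in the other 7. The 10 expressed genes of the enterocyte apical surface and junctions all lay within 2-fold of the mean of the rest, from −0.38 for Myo31DF to 0.98 for kst.

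Acid secretion and metal handling are functions known for the middle midgut. Of 21 expressed V-ATPase subunits, which make the proton pump, 0 were higher and 6 lower, and 9 had their lowest value in M9, against 7.55% of all entries. Vha14-1 had 440.2 FPKM in M9, against 2299.7 at M1, 2050.5 at M2, 1798 at M3–5, 1062 at M6, 612 at M7–8, 597 at M10–11 and 728 at M12–13. Several of the lower subunits have short transcripts, but the median length of the list was 2311.5 nt, against 1698.5 nt for expressed entries. Without the length trend 2 of the 17 with a known length were lower, and Vha13, 1 of the 6, had no known length. The median deviation was −0.51 for all 21 and −0.63 without the trend. After scaling the subsections to equal summed FPKM, 3 subunits were lower, as many as without M1 or without M3–5. Of 19 expressed metal genes, 2 were higher and 3 lower, against 8.31% and 6.43%, so the higher count is near the background. Their median deviation was 0.27, and 11 of 19 deviations were positive. Without the length trend 2 were higher and 1 was lower. Fer2LCH, the light chain of the iron store ferritin, had 2423 FPKM in M9, against 458 (M12–13) to 8358 FPKM (M7–8) in the other 7. It was 1 of the 2 higher genes, and shares its stated position with the heavy chain gene Fer1HCH. Zip3, a zinc transporter, had 15.1 FPKM in M9, against 0.639 (M6) to 23.2 FPKM (M10–11) in the other 7. MtnA, a metallothionein that binds copper, had 1225 FPKM in M9, against 621 (M10–11) to 50388 FPKM (M6) in the other 7.

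Carbonic anhydrases and aquaporins gave 3 higher and 4 lower of 9, against 8.31% and 6.43%. Drip, a water channel, had 67.00 FPKM in M9, against 0.742 (M6) to 176 FPKM (M10–11) in the other 7, and CAH2, a carbonic anhydrase, had 32.9 FPKM in M9, against 0.361 (M10–11) to 312 FPKM (M1) in the other 7. CG11284, of the same enzyme family, had 12.6 FPKM in M9, against 76.6 at M1, 158 at M2, 147 at M3–5, 26.7 at M6, 66.1 at M7–8, 61.7 at M10–11 and 238 at M12–13, the lowest of all 8 in M9 by more than 2-fold.

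Some immune genes were higher in M9 and others lower. Of 9 expressed peptidoglycan recognition and Imd regulator genes, 2 were higher and 2 lower, against 8.31% and 6.43% of all entries. PGRP-SC1a and PGRP-SC1b, near-identical amidases that degrade peptidoglycan, had 5.55 and 6.53 FPKM in M9, against 22.4 and 31.1 FPKM in M10–11. pirk, which restrains the Imd immune pathway, had 33.5 FPKM in M9, against 139.8 at M1, 179 at M2, 193 at M3–5, 130.1 at M6, 129 at M7–8, 90.4 at M10–11 and 98.7 at M12–13, and M9 was at least 2-fold below every other subsection. Of 5 expressed antimicrobial peptides, 0 were higher and 2 lower in M9.

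The 20 entries for which M9 was at least 2-fold above every other subsection show what was most concentrated there. They hold 4 Jonah genes (Jon99Cii, Jon99Ciii, Jon25Biii and Jon44E), 2 P450s (Cyp4e3 and Cyp4e2), Amy-d, Cht9 and CG3106, described above. The others were chosen after their values were seen. CG8299, a predicted serine endopeptidase, had 3885 FPKM in M9, against 296 at M1, 1219 at M2, 619 at M3–5, 7.41 at M6, 491 at M7–8, 1109.6 at M10–11 and 1128 at M12–13. Fmo-1, a flavin monooxygenase, had 35.9 FPKM in M9, against 0.0271 at M1, 0.0553 at M2, 0.0455 at M3–5, 0.0352 at M6, 5.74 at M7–8, 8.001 at M10–11 and 1.13 at M12–13. GS, glutathione synthetase, had 416 FPKM in M9, against 42.3 at M1, 45.6 at M2, 48.9 at M3–5, 47.1 at M6, 144 at M7–8, 159 at M10–11 and 33.6 at M12–13. Its near-identical copy CG32495 had the same 416 FPKM in M9, so the reads of this pair cannot be assigned to 1 gene.

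The remaining genes of this group were lower in level. mab-21 had 72.8 FPKM in M9, against 0.309 at M1, 0.625 at M2, 0.579 at M3–5, 0.232 at M6, 24.9 at M7–8, 26.2 at M10–11 and 1.18 at M12–13, and cu had 113 FPKM in M9, against 17.3 (M6) to 50.3 FPKM (M7–8) in the other 7. Grip, CG15068 and CG33494 had 17.5, 28.2 and 28.4 FPKM in M9, and at most 7.14, 10.7 and 13.1 FPKM elsewhere. The last 2 entries were short transcripts with no gene identifier. FBtr0087901 (2R, 8224238 to 8224309), annotated as a transfer RNA pseudogene of 72 nt, had 53.4 FPKM in M9 and was listed at 0 in the other 7. FBtr0075835 had 24.3 FPKM in M9 and was also listed at 0 elsewhere. For features this short, few fragments give a high FPKM.

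Entries at least 2-fold below every other subsection were 5: Gs2, CG11284, pirk, kcc and CG43797, of which kcc and CG43797 were chosen after their values were seen. Gs2, a glutamine synthetase, had 1.67 FPKM in M9, against 77.2 at M1, 62.8 at M2, 248 at M3–5, 518 at M6, 294 at M7–8, 24.5 at M10–11 and 1725 at M12–13. M9 was the only subsection under 20 FPKM. kcc, a potassium and chloride cotransporter, had 12.2 FPKM in M9, against 53.9 at M1, 77.5 at M2, 104 at M3–5, 105 at M6, 214 at M7–8, 25.8 at M10–11 and 141 at M12–13, and CG43797 had 1.91 FPKM in M9, against 5.30 (M10–11) to 53.5 FPKM (M3–5) in the other 7. Gdh, glutamate dehydrogenase, also chosen after its values were seen, had 42.6 FPKM in M9, against 18.6 (M2) to 1169 FPKM (M12–13) in the other 7, below both of its neighbours at 138 and 102 FPKM.

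Most entries higher in M9 were within 2-fold of M10–11, but the share within 2-fold was larger still over all expressed entries. Of the 525 entries higher in M9, 442 were within 2-fold of M10–11, 65 were at least 2-fold above it and 18 at least 2-fold below. Against M7–8, 255 were within 2-fold and 255 were above. Over all expressed entries, 160 (2.53%) were at least 2-fold above M10–11 and 115 (1.82%) below it, while 515 (8.16%) were above M7–8 and 394 (6.24%) below it. Pearson's r of log2(FPKM + 1) with M9 was 0.96 for M10–11, 0.89 for M7–8, 0.86 for M12–13 and 0.68 to 0.75 for the 4 others, as a description over 6315 entries that share 1 library per subsection.

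A total of 30 entries (0.475%) were at least 2-fold above both neighbours and 14 (0.222%) at least 2-fold below both. The first set holds all 20 entries named above. CG5508, chosen from the other 10 after its values were seen, had 91.3 FPKM in M9, against 19.6 in M7–8, 37.2 in M10–11 and at most 50.5 in the other 5 subsections. CG8791, likewise, had 23.9 FPKM in M9, against 0.810 (M6) to 225 FPKM (M2) in the other 7, so it stood above its neighbours but below M1, M2 and M3–5.

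**Figure D4:**
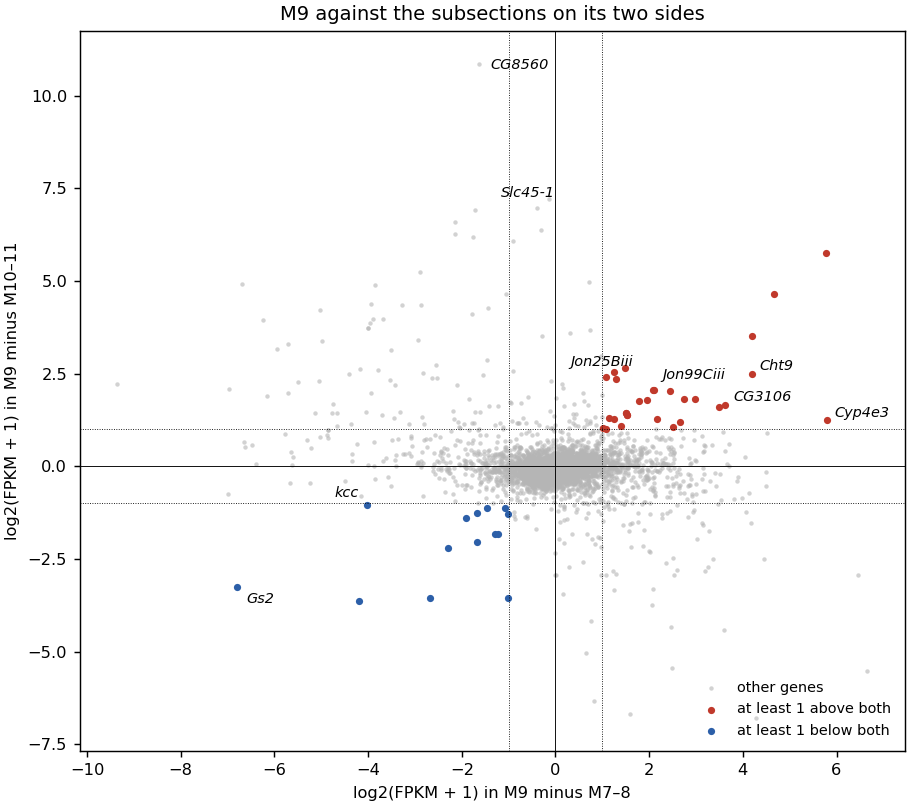
Each point is an expressed entry, with M9 minus M7–8 on the x axis and M9 minus M10–11 on the y axis, both in log2(FPKM + 1). Red marks the 30 entries at least 1 above both, among them Cyp4e3 and Jon99Ciii, and blue the 14 at least 1 below both, among them Gs2. CG8560 and Slc45-1 lie far above M10–11 and below M7–8.

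Of the 406 entries lower in M9, 132 were highest in M1, 101 in M2, 67 in M6, 58 in M3–5, 32 in M12–13 and 16 in M7–8, and none in M10–11. Over all expressed entries the same counts were 1325 in M1, 1367 in M2, 512 in M6, 434 in M3–5, 681 in M12–13, 920 in M7–8 and 531 in M10–11. M9 was the lowest subsection for 155 of the lower ones. The 10 lowest deviations were all of genes below 10 FPKM in M9, and besides the 4 lysozymes, 3 trypsins and Gs2 they included CG8661, with 0.277 FPKM in M9, against 0.141 (M10–11) to 39532 FPKM (M3–5) in the other 7, and CG4734, with 1.05 FPKM in M9, against 0.261 (M10–11) to 18216 FPKM (M3–5) in the other 7.

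Markers of other tissues were low or flat in M9. Over 7 marker lists, 26 genes were expressed, of which 1 was higher in M9 (ush, 1.12) and 7 were lower, against 8.31% and 6.43% of all entries. The only expressed tubule marker, Vha100-4, was 1 of the lower ones, with 0.0971 FPKM in M9 and 632 FPKM in M6. Fat body, salivary gland and Malpighian tubule markers summed to 0.616, 0.0565 and 1.31 FPKM in M9, and trachea and nervous system markers to 3.13 FPKM. Muscle markers, which the gut wall also expresses, summed to 1376 FPKM in M9, against 1049 to 2996 FPKM elsewhere. Hemocyte markers summed to 44.9 FPKM in M9 and hindgut markers to 27.3 FPKM. The number of entries above 1 FPKM was 7158 in M9, against 6764 to 7360 elsewhere. Genes of the mitochondrial genome were called lower for 12 of 13, but the quantification of 9 was marked as not OK in some library.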

How the data were processed

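Total RNA of 8 midgut subsections was sequenced by the authors as unstranded single-end reads, 1 library each. The deposited FPKM, which the authors made with TopHat2 2.0.6 and Cuffdiff 2.0.2 (submitters' processing notes), with upper-quartile scaling and correction for multiply mapped reads, were used as they stood. Read counts are not analysed here, so the number of reads behind each value is unknown. The paper reports fewer reads for M6 than for the other subsections, and RNA there that degraded more readily. One entry without a name was left out, and no per-sample column was left unmapped (0 columns). Positions are those of FlyBase release 5. Lengths came from a later annotation, joined by identifier, and the length trend was a lowess curve (share 0.3).

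Deviations were computed in Python 3.11.15 (statsmodels 0.14.6 for the curve, pandas 2.3.3 for tables, scipy 1.17.1 for rank correlation), and the code was tested on simulated data. With 1 library per subsection no test was made. Members and the 38 gene lists were chosen with earlier results of these data known, and 5 families came from the paper's supplement. Genes were named from the 25 largest and 10 lowest deviations, the 10 highest FPKM in M9, Jon99Ciii, CG3106, Cyp4d2 and list members past ±1 or at least 2-fold highest or lowest in M9. Not every such list member is named, and list members within ±1 are named only to complete a family or a description. Alternatives were a pseudocount of 0.1, other limits on low values, 2 other scalings, status or transcript entries left out, the median of the other 7, each of the 7 left out, and the length trend removed.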

Additional observations from a re-analysis of the deposited data

How the results depend on the processing

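No paired analysis was possible because each subsection was sequenced once. The count of entries higher in M9 (525) lay between 374 and 692 under every alternative run, and stayed within 1.5 times. The count of entries lower in M9 (406) was 253 with the length trend removed, and between 313 and 544 otherwise. Rescaling to the same summed FPKM gave 608 higher and 321 lower. Entries highest in M9 by at least 2-fold (20) numbered 13 at a mean FPKM above 10 and 12 after rescaling, and 20 to 82 with 1 subsection left out (38 without M7–8, 82 without M10–11). Entries lowest by at least 2-fold (5) numbered 8 with a pseudocount of 0.1, and 5 to 16 with 1 subsection left out (11 without M7–8, 16 without M10–11). Leaving out subsections gave deviations of 7.03 to 8.93 for Jon99Ciii and 6.65 to 8.26 for CG3106. Turned in direction were pcl (0.0742 with a pseudocount of 0.1 and 1.68 against the median of the other 7), and, against that median, CG7025 (0.64), CG18585 (0.0539), CG32379 (0.14), CG5322 (0.16), LM408 (0.20), CG3940 (−0.30), CG13565 (0.15) and CG7252 (−0.0803). With 1 subsection left out, CG32379 ranged from −1.24 to 0.0437 and NAAT1 from −1.40 to 0.000328, the upper ends without M12–13. Counts of list members also moved with 1 subsection left out. Without M1, the higher carbonic anhydrases and aquaporins (3) numbered 5, the lower peritrophic and mucin genes (7) 4 and the lower progenitor gene (1) 0. Without M6, M10–11 or M12–13, the higher carbonic anhydrases and aquaporins numbered 1, and the lower ones (4) numbered 2 without M6. The higher metal genes (2) numbered 1 without M1, M2 or M3–5, and the lower ones (3) 5 without M1, M2 or M10–11. The acyl-CoA-binding proteins (0 higher, 2 lower) had 1 higher and 1 lower without M1, M2 or M3–5, and 1 higher without M10–11 or 2 without M12–13. Without M6, higher maltases (1) numbered 0, higher sterol uptake genes (4) 2 and lower regional factors (1) 0. Without M6 or M7–8, the higher carboxylesterases (2), the lower endocrine peptides (2) and the lower UDP-glycosyltransferases (0) each numbered 1, and 1 carboxylesterase was lower without M6. Lower peptidoglycan recognition proteins (2) numbered 1 without M2, M3–5 or M6. Without M12–13, the metallocarboxypeptidases (3 higher, 3 lower) had 5 higher and 0 lower, lower lysosomal glycosidases (4) numbered 0, lower amino acid carriers (3) 1, lower neutral lipases (1) 2 and higher hemocyte markers (1) 0. Lower muscle markers (3) numbered 1 without M2 and 0 without M3–5, higher apical enterocyte genes (0) 2, 1 and 2 without M7–8, M10–11 and M12–13, and higher hindgut markers (0) 1 without M7–8 or M10–11. With the length trend removed, among genes with a known length, more members were higher among trypsins (4, against 3), metallocarboxypeptidases (4, against 3), sterol uptake genes (5, against 4), acyl-CoA-binding proteins (2, against 0), carbonic anhydrases and aquaporins (5, against 3), endocrine peptides (4, against 3) and peritrophic and mucin genes (9, against 8). Fewer were higher among lipid synthesis genes, amino acid carriers and regional factors (3, against 4, in each) and hemocyte markers (0, against 1). Lower members were fewer among metallocarboxypeptidases, aspartic proteases and fat body markers (2, against 3, in each), among acyl-CoA-binding proteins, endocrine peptides, antimicrobial peptides and peptidoglycan recognition proteins (1, against 2, in each), carbonic anhydrases and aquaporins (3, against 4) and progenitor genes (0, against 1), and more among lysosomal glycosidases (5, against 4). With 1 library per subsection, no error between larvae can be given.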

Other observations

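CG31041, among the 25 largest deviations, had 774 FPKM in M9, against 8.08 at M1, 4.24 at M2, 15.6 at M3–5, 13.2 at M6, 2103 at M7–8, 38.8 at M10–11 and 4.11 at M12–13. CG10051, a predicted peptidase chosen after its values were seen, had 208 FPKM in M9, against 0.0128 (M3–5) to 300.2 FPKM (M10–11) in the other 7. CG10827, a predicted alkaline phosphatase also chosen after its values were seen, had 627 FPKM in M9, against 0.776 (M3–5) to 426 FPKM (M10–11) in the other 7. Ag5r2, a secreted protein of the antigen 5 family and 1 of the 10 most abundant entries of M9, had 15148 FPKM in M9, against 5503 at M1, 1303 at M2, 789 at M3–5, 168 at M6, 6568 at M7–8, 15708 at M10–11 and 978 at M12–13, so M9 and M10–11 were close.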
